A study of Oryza sativa with 8 samples.

Results

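The genes described here encode the enzymes that make nicotianamine and deoxymugineic acid in rice, and the transporter that releases deoxymugineic acid from the root. They were taken as the array probes named for 6 loci, the nicotianamine synthase genes NAS1 (Os03g0307300), NAS2 (Os03g0307200) and NAS3 (Os07g0689600), the nicotianamine aminotransferase gene NAAT1 (Os02g0306400), the deoxymugineic acid synthase gene DMAS1 (Os03g0237100) and the efflux transporter gene TOM1 (Os11g0134900). The array carries 29695 loci, and 10 probes belong to these 6. DMAS1 and TOM1 have 1 probe each and the others have 2. The probes of NAAT1 are written with the locus number followed by the word area, and none is named Os02g0306401. Their names place the probes at the end of the coding sequence and in the untranslated region after it, except the brighter NAAT1 probe, which lies in that untranslated region alone. All 6 genes passed the filter on dim probes, which kept 24973 units (loci, or probes without a locus) for the test.

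Roots of rice seedlings, cultivar Koshihikari, were compared after 10 days at 1 mM ammonium chloride (4 arrays) and at 0.005 mM ammonium chloride (4 arrays). Each array held RNA of 1 biological replicate, taken from whole roots and therefore from all root cell types together. Chloride rose with ammonium between the groups, and the iron content of the solutions is not given in the sources used here. The 4 arrays at 1 mM lay on a single slide and the 4 at 0.005 mM on the other, so an effect of the slide cannot be told apart from one of ammonium.

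Grasses such as rice take up iron with the help of phytosiderophores, small molecules that bind ferric iron in the soil. Nicotianamine synthase makes nicotianamine from S-adenosylmethionine, nicotianamine aminotransferase converts nicotianamine into a keto acid, and deoxymugineic acid synthase reduces this to deoxymugineic acid, the phytosiderophore of rice. TOM1 then carries it out of the root cell, and the iron complex returns through the transporter YSL15. Nicotianamine itself is not secreted in this way but binds iron, zinc and copper inside the plant. In rice roots, NAS1, NAS2, NAAT1, DMAS1 and TOM1 are known as genes induced by iron shortage.

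At 1 mM ammonium chloride, 5 of the 6 genes rose and 1, NAS3, fell. On the scale used here NAS2 and NAS1 changed most, TOM1 and NAAT1 followed, and DMAS1 changed least among those that rose. The place of TOM1 is uncertain, because its signals at 0.005 mM were near background. Its log2 change was 2.61 with normexp background correction and quantile normalization, whereas NAAT1 had at least 3.99 under every alternative. Of all units tested 32.2% were called higher, 43.8% lower and 76.1% either, at an adjusted p under 0.05 (limma with Benjamini-Hochberg adjustment). That split depends on the scaling, with 16.1% higher and 64.4% lower after spike-in scaling and 19.6% higher and 59% lower on unscaled arrays. The 5 genes that rose did so by at least 2-fold, which 9.85% of all units did, whereas NAS3 was not among the 8.67% that fell by as much. The groups did not overlap for any of the 6 genes, as for 71.6% of all units, with 1 mM above for 30.1% and below for 41.5%. The median log2 change of the 6 genes was 4.52 on the scale used here, TOM1 included, against -0.087 over all units. These genes and the lists below were chosen with earlier results of these data known. Setting them beside all units is therefore a description only. Changes are 1 mM minus 0.005 mM, and a level is the log2 signal minus that of the 75th percentile of its array, so that 75% of spots lie below a level of 0. An SE is that of the limma fit. In whole roots, fewer cells that express a gene and less of its RNA per cell cannot be told apart.

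NAS2 had levels of 5.32, 5.40, 4.99 and 5.31 at 1 mM (replicates 1 to 4), against -5.14, -2.24, -5.32 and -7.69 at 0.005 mM. The 4 arrays at 1 mM lay close together, whereas replicate 2 at 0.005 mM was far above and replicate 4 far below the other arrays of that group. In processed signal units these were 144632, 142271, 101640 and 127865 at 1 mM, against 119, 886, 96.1 and 19.2 at 0.005 mM. The last of these was not well above background, so the level of that array is uncertain. The fitted change was 10.35 ± 0.97 on the log2 scale (SE, n = 4 per group, limma adjusted p = 2.09e-05), or 1305-fold. Only 1 of the 24973 units had a larger fitted increase. Without replicate 2 at 0.005 mM the change was 11.30, and without replicate 4 it was 9.49.

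NAS1 is the neighbouring gene of NAS2 on chromosome 3, 1 step away in the RefSeq gene table. Its levels were 4.70, 4.51, 3.94 and 4.30 at 1 mM, against -4.31, -1.90, -4.55 and -6.03 at 0.005 mM. As for NAS2, replicate 2 stood highest and replicate 4 lowest at 0.005 mM, yet every array at 1 mM was far above all of these. NAS1 was well above background on all 8 arrays. Its change was 8.56 ± 0.76 (SE, n = 4 per group, limma adjusted p = 1.45e-05), or 377-fold. The change was 9.33 without replicate 2 at 0.005 mM and 7.95 without replicate 4. With normexp background correction and quantile normalization, which adds an offset to dim signals, it was 7.87 for NAS1 and 9.14 for NAS2. The genes are close copies, and the share of signal that each probe takes from the other gene was not tested.

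NAS3, on chromosome 7, went the other way. It had levels of -0.78, -0.99, -1.57 and -1.29 at 1 mM, against -0.29, -0.58, -0.33 and -0.16 at 0.005 mM. The groups were separate by a small margin, with replicate 1 at 1 mM next to replicate 2 at 0.005 mM. Its log2 change was -0.82 ± 0.17 (SE, n = 4 per group, limma adjusted p = 0.00237), so that the signal was 1.76-fold lower at 1 mM. The second probe of NAS3 gave -0.81.

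**Figure D1:**
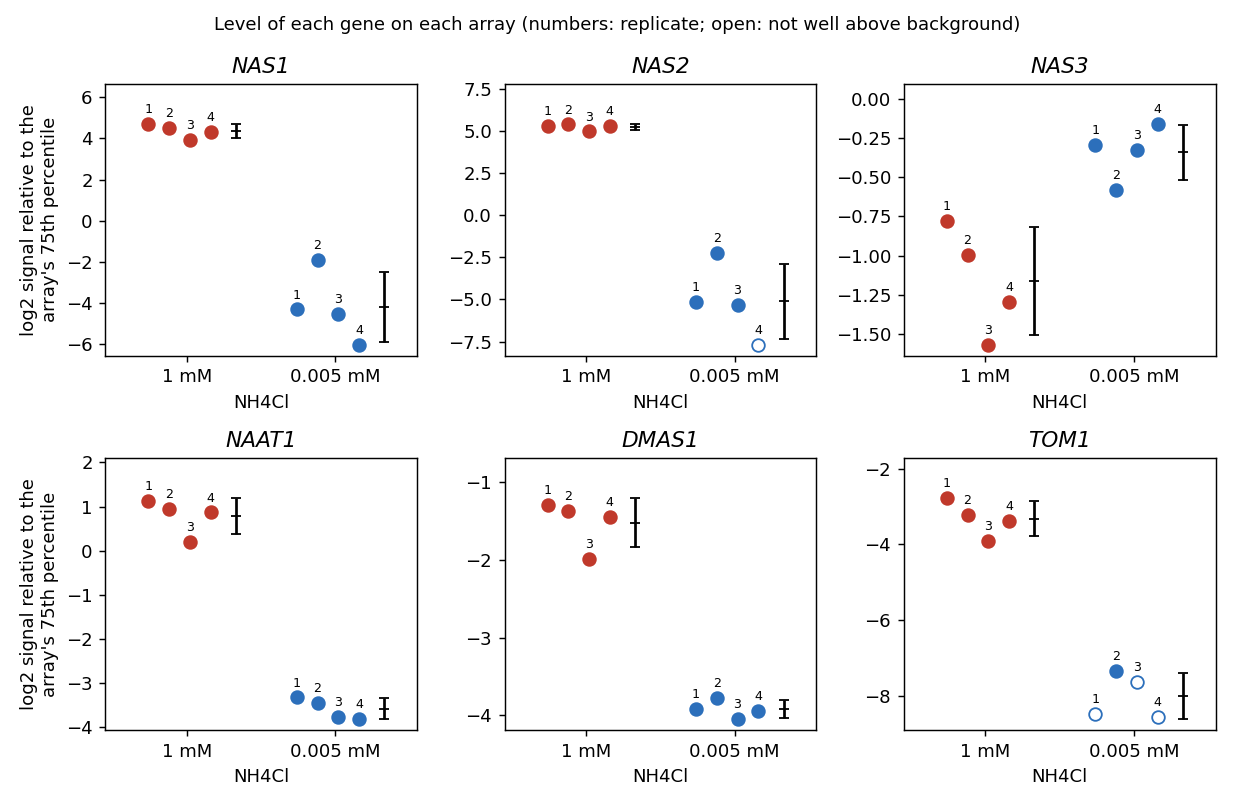
Log2 signal relative to the array's 75th percentile for each gene, with 1 mM on the left and 0.005 mM on the right. Each point is 1 array, numbered by replicate and open where the probe was not well above background, and bars are mean ± SD (n = 4). The scales of the panels differ. NAS1 and NAS2 spread over the arrays at 0.005 mM, from replicate 2 at the top to replicate 4 at the bottom, and NAS3 alone is lower at 1 mM.

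Downstream of nicotianamine, NAAT1 had levels of 1.13, 0.95, 0.21 and 0.87 at 1 mM, against -3.32, -3.44, -3.75 and -3.80 at 0.005 mM. Here the arrays at 0.005 mM lay within 1.39-fold of each other, and replicate 3 was the lowest array at 1 mM. The change was 4.37 ± 0.20 (SE, n = 4 per group, limma adjusted p = 4.49e-07), or 20.6-fold. DMAS1, whose product completes deoxymugineic acid, had levels of -1.29, -1.37, -1.99 and -1.45 at 1 mM, against -3.92, -3.77, -4.05 and -3.94 at 0.005 mM. Its arrays at 0.005 mM were the tightest of the 6 genes, with a highest over lowest array of 1.21-fold. DMAS1 rose by 2.40 ± 0.15 (SE, n = 4 per group, limma adjusted p = 1.99e-06), or 5.26-fold.

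TOM1, which exports deoxymugineic acid, had levels of -2.78, -3.21, -3.90 and -3.38 at 1 mM, against -8.48, -7.33, -7.63 and -8.55 at 0.005 mM. Only replicate 2 of the 0.005 mM arrays was well above background, so TOM1 passed the filter on dim probes through the 1 mM arrays, and its fitted change and p rest on signals near background at 0.005 mM. Its processed signals there were 11.7, 26, 19.4 and 10.6, against 527, 364, 215 and 311 at 1 mM. The change was 4.68 ± 0.33 (SE, n = 4 per group, limma adjusted p = 4.34e-06), or 25.7-fold. With normexp background correction and quantile normalization it was 2.61.

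Where a gene had a second probe, both gave nearly the same change. The second probe gave 10.42 for NAS2, 8.52 for NAS1 and 4.38 for NAAT1. The spread at 0.005 mM also came back on the second probes, which are separate spots. The second NAS2 probe had -5.58, -2.72, -6.00 and -7.76 and the second NAS1 probe -4.45, -2.00, -4.79 and -5.93 in replicates 1 to 4. The authors' deposited table lists all 10 probes as changed, in the same directions, with its ratio read as 1 mM over 0.005 mM. It lists 28381 spots in all, which is 64.9% of the number of non-control spots. Its log2 ratios of averages, by the probe that stands for each gene, were 9.02 for NAS2, 7.67 for NAS1, 4.51 for TOM1, 4.26 for NAAT1, 2.28 for DMAS1 and -0.93 for NAS3 in the authors' deposited table.

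The spread of NAS1 and NAS2 at 0.005 mM was wide compared with other genes. NAS2 had an SD of 0.18 at 1 mM and 2.23 at 0.005 mM, and 3 of all units, NAS2 included, had an SD at least as large at 0.005 mM. NAS1 had an SD of 0.33 at 1 mM and 1.71 at 0.005 mM, which 20 units reached. The highest array at 0.005 mM exceeded the lowest 43.9-fold for NAS2 and 17.5-fold for NAS1. For NAS2 the lowest array, replicate 4, was not well above background, so the size of its SD and of this ratio is uncertain. NAS1 was well above background on every array. TOM1 followed at 2.34-fold, with signals near background. Its SD at 0.005 mM was 0.61, which 339 units (1.36%) reached. NAS3 stood at 1.34-fold. A spread of 17.5-fold or more was thus measured for the pair of neighbouring synthase genes and not for NAS3, NAAT1 or DMAS1. For TOM1 most arrays at 0.005 mM were not well above background, so the width of its spread is uncertain.

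Arrays of a group were ordered alike for several of these genes. At 1 mM, replicate 3 was the lowest array for all 6 genes, which it was for 27.5% of all units, and replicate 1 was the highest for 5, which it was for 36.3%. At 0.005 mM, replicate 2 was the highest array for NAS1, NAS2, DMAS1 and TOM1, against 17.2% of all units, and replicate 4 was the lowest for NAS1, NAS2, NAAT1 and TOM1, against 20.8%. NAS3 ran the other way there, with replicate 4 highest and replicate 2 lowest. Among the arrays at 0.005 mM, TOM1 was well above background in replicate 2 alone, and NAS2 in all but replicate 4. For NAAT1, replicates 3 and 4 were close, at -3.75 and -3.80, so part of the order at 0.005 mM is uncertain. These orders are a description of the 8 samples, whose genes are not independent of each other.

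**Figure D2:**
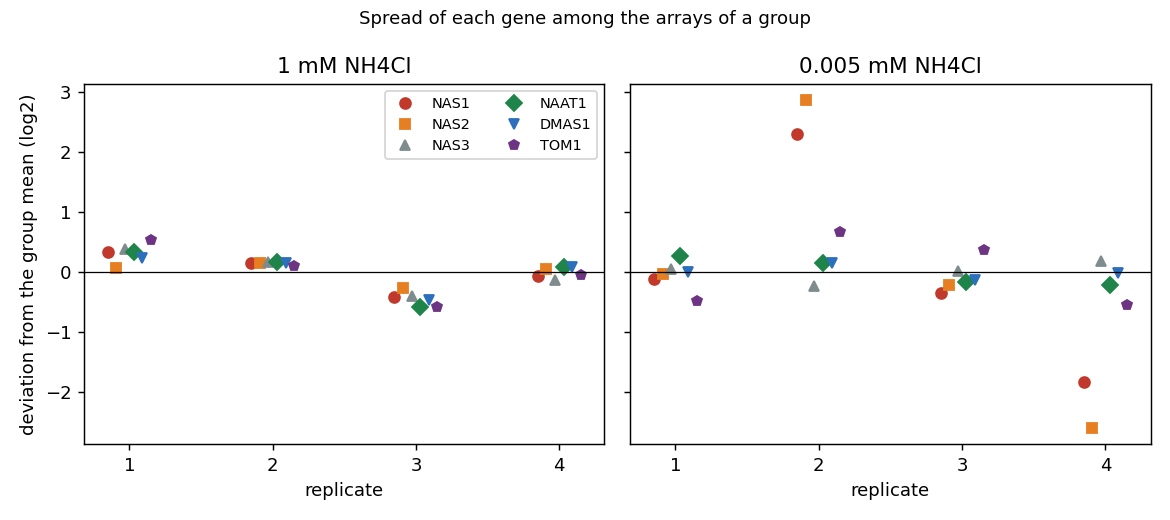
Deviation of each gene's log2 level from the mean of its group, by replicate, at 1 mM (left) and 0.005 mM (right). At 1 mM replicate 3 lies below the mean for all 6 genes. At 0.005 mM NAS1 and NAS2 stand far above the mean in replicate 2 and far below it in replicate 4, while the other genes stay within 1 log2 unit.

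Differences between 2 genes on the same array do not depend on a scaling that shifts all log2 values of an array alike, though quantile normalization and normexp can move them. Probes differ in brightness, so only the shift of such a difference between the groups, not its sign, compares the genes. The level of NAS1 minus that of NAS2 lay between -1.05 and -0.62 at 1 mM and between 0.34 and 1.66 at 0.005 mM, so that NAS2 changed more than NAS1 by 1.79 on the log2 scale. NAAT1 minus DMAS1 lay between 2.19 and 2.41 at 1 mM and between 0.14 and 0.59 at 0.005 mM, a difference in change of 1.97. NAS1 minus NAS3 was nearly constant at 1 mM, between 5.48 and 5.60, but ran from -5.87 to -1.32 at 0.005 mM. Of the 15 pairs of genes, only NAAT1 minus TOM1 overlapped between the groups, at 3.91 to 4.25 at 1 mM and 3.88 to 5.16 at 0.005 mM. The size of each such difference that involves TOM1 or NAS2 includes arrays not well above background.

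The loci whose pattern over the 8 arrays came closest to NAS1, by the root mean square difference of levels centred on each gene's mean, were Os10g0452900 (0.67), NAS2 (0.96) and Os01g0494300 (1.01). For NAS2 they were NAS1 (0.96), Os10g0452900 (1.11) and Os07g0475900 (1.33). The 3 loci other than NAS1 and NAS2 were not well above background on any of the 4 arrays at 0.005 mM. Their signals at 1 mM were at least 338-fold (Os10g0452900), 97.4-fold (Os01g0494300) and 332-fold (Os07g0475900) higher than the lowest signal well above background, on the scale used here. A pattern close to NAS1 or NAS2 over the 8 arrays requires a large rise, so these rises follow from how the loci were picked. The 3 loci entered the test through the 1 mM arrays alone. Their changes with normexp and quantile normalization are not given here. Os10g0452900 had levels of 0.51, -0.28, -0.69 and -0.21 at 1 mM, against -8.85, -8.30, -9.78 and -10.27 at 0.005 mM. Its highest and lowest arrays at 0.005 mM were replicates 2 and 4, as for NAS1 and NAS2, but at signals not well above background.

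Over the 4 arrays at 0.005 mM alone, the locus closest to NAS1 was Os05g0343200, with a root mean square difference of 0.36, before Os09g0356200 (0.43) and NAS2 (0.48). Os05g0343200 was well above background on all 8 arrays and stood at -6.92, -4.09, -6.62 and -7.62 in replicates 1 to 4 at 0.005 mM. At 1 mM it stood at -5.58, -6.39, -6.57 and -5.58, and its change of 0.28 ± 0.71 did not pass (limma adjusted p = 0.73). For NAS2 the closest were NAS1 (0.48), Os05g0343200 (0.77) and Os05g0143000 (0.86). Os09g0356200 and Os05g0143000 were each well above background on only 1 of these 4 arrays, and NAS2 on 3, so their places rest partly on undetected signals. Apart from NAS1 and NAS2, these loci are unnamed in the annotation at hand.

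Methionine supplies S-adenosylmethionine, from which nicotianamine is made, and a salvage cycle regenerates it. Of 10 measured genes of this cycle 8 rose, none fell and 2 did not pass (limma), and the median log2 change was 0.79, against 32.2% higher, 43.8% lower and a median of -0.087 over all units. At an unadjusted p under 0.05 the count of lower genes was also 0, since SAMS1 had a value of -0.05 ± 0.07 and IDI2 of -0.05 ± 0.06. The 4 that changed most were ARD1 (acireductone dioxygenase of the salvage cycle) at 3.70 ± 0.14, SAMS3 (an S-adenosylmethionine synthetase) at 1.18 ± 0.19, FDH1 (formate dehydrogenase, which removes formate released by the cycle) at 1.102 ± 0.05 and DEP1 (a salvage enzyme) at 1.02 ± 0.08. SAMS3 was dim, with replicate 1 at 0.005 mM not well above background, and had a change of only 0.42 after normexp and quantile normalization. Adjusted p-values of the genes named as changed in this list and the iron lists lay between 3.33e-08 (IRT2) and 0.00063 (SAMS3; limma, n = 4 per group). ARD1 had levels of -0.80, -0.29, -0.13 and -0.57 at 1 mM, against -4.12, -4.16, -4.26 and -4.04 at 0.005 mM. Its arrays at 0.005 mM lay close together, without the spread of NAS1 and NAS2. With spike-in scaling 3 genes of this list were called lower, next to 64.4% of all units. When arrays were left unscaled 2 were, next to 59%, against 0 with the scaling used here. With quantile normalization, alone or after normexp, 2 were lower as well, next to 45.7% and 45.8% of all units. The count of lower genes in this list thus depends on the processing. The 6 genes described first kept their direction and call under each scaling that was run. Spike-in scaling moves every change by the same amount, so it can alter calls of changes near 0 but not of large rises. No contrast between the lists is therefore drawn from this.

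Among 14 measured genes of iron transport, 6 rose, 7 fell and 1 did not pass, with a median of -0.37, so that about as many fell as rose, next to 32.2% higher and 43.8% lower over all units. YSL15, which brings the iron complex of deoxymugineic acid into the root, rose by 3.44 ± 0.20, with levels of 0.82, 0.31, -0.13 and 0.45 at 1 mM, against -3.08, -2.75, -3.34 and -3.12 at 0.005 mM. Replicate 3 was again the lowest at 1 mM and replicate 2 the highest at 0.005 mM. IRT2, a transporter of ferrous iron, rose by 2.91 ± 0.08 (2.10 after normexp and quantile normalization) and NRAMP1, a metal transporter, by 2.76 ± 0.14. MIR, known as a mitochondrial gene induced by iron shortage, was undetected (not well above background) on all 4 arrays at 0.005 mM and was at least 9.05-fold higher at 1 mM on the scale used here (limma adjusted p = 2.46e-06). With normexp and quantile normalization its log2 change was 1.36, less than that bound, and as it entered the test through the 1 mM arrays alone, its p is no independent support. The 7 that fell lay between -1.19 (YSL9, of the yellow stripe family of metal chelate transporters) and -0.55 (ENA2, an exporter of nicotianamine). They included IRT1, a transporter of ferrous iron, at -0.86 ± 0.09 and PEZ1, an exporter of phenolics, at -1.19 ± 0.08. Replicate 3 at 1 mM was the lowest array for 9 of the 14 genes.

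Of 9 measured iron regulators 2 rose, 3 fell and 4 did not pass, with a median of -0.12, and so a smaller share than over all units was called in either direction. IMA1, a gene for a small iron-signalling peptide, rose by 4.51 ± 0.27, with levels of 0.53, 0.26, -0.69 and -0.20 at 1 mM, against -4.79, -4.74, -4.47 and -4.14 at 0.005 mM. IRO2, a transcription factor known to induce NAS1, NAS2, NAAT1, DMAS1 and TOM1, was likewise undetected on all 4 arrays at 0.005 mM and was at least 5.37-fold higher at 1 mM on the scale used here (limma adjusted p = 1.47e-06). Like MIR it entered the test through the 1 mM arrays alone, and with normexp and quantile normalization its log2 change was 0.83, less than that bound. BHLH58, a transcription factor listed as acting on IRO2, fell by 1.61 on the log2 scale, and HRZ1, a ubiquitin ligase known to restrain the response to iron shortage, fell by 0.62. Of 4 genes of iron storage 1 passed the test, next to 76.1% of all units. That gene was VIT2, for a vacuolar iron transporter, at -3.26 ± 0.09. The ferritin genes FER1 and FER2 had values of 0.08 ± 0.09 and -0.03 ± 0.07. With spike-in scaling, 7 of 9 regulators and 4 of 4 storage genes were lower, next to 64.4% of all units.

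**Figure D3:**
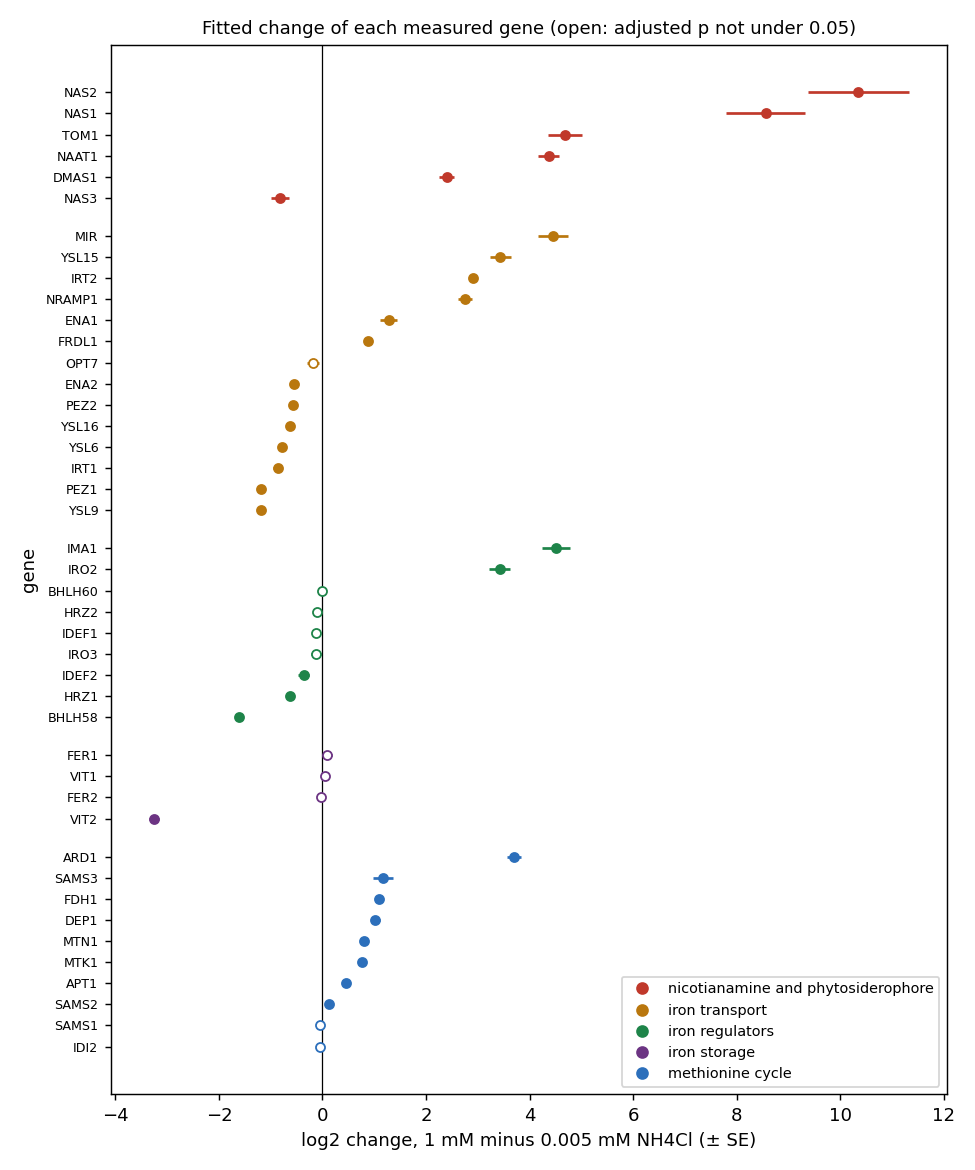
Fitted log2 change, 1 mM minus 0.005 mM, with its SE (n = 4 per group), for every measured gene of the pathway and of the 4 related lists. Open points did not pass an adjusted p under 0.05. The values of MIR and IRO2 rest on signals at 0.005 mM that were not well above background. NAS2 and NAS1 stand at 10.35 and 8.56, above every gene of the other lists, whose largest value is the 4.51 of IMA1.

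The array signals show the following for the samples as a whole. Between 81.4% and 85.1% of the non-control spots of an array were well above background, no such spot was saturated, and correlations across units were 0.9925 to 0.9966 within a group and 0.9241 to 0.9345 between groups. All 5 listed root markers were measured, and their summed signal was 149 to 157 times the 75th percentile at 1 mM and 147 to 157 times at 0.005 mM. These sums rest on the brightest probes, and by gene RCC3 rose by 0.94 while LSI1, LSI2, TIP2;1 and AKT1 fell, with changes of -1.25 to -0.36. All 5 listed markers of green tissue were called higher at 1 mM, with sums of 156 to 190 at 1 mM and 62.7 to 75.7 at 0.005 mM, and none was near 0. Their part in the results was not tested. Of 3 listed seed markers 2 were measured, with sums of 0.0876 to 0.0979 at 1 mM and 0.113 to 0.125 at 0.005 mM. They went opposite ways, as GLUA2 fell by 0.54 and GLUA1 rose by 2.53, GLUA1 with no array at 0.005 mM well above background. The 75th percentile relative to 7 spike-in probes was 0.38 log2 units lower at 1 mM (two-sided exact permutation p = 0.0286, the smallest that 35 splits allow).

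**Figure D4:**
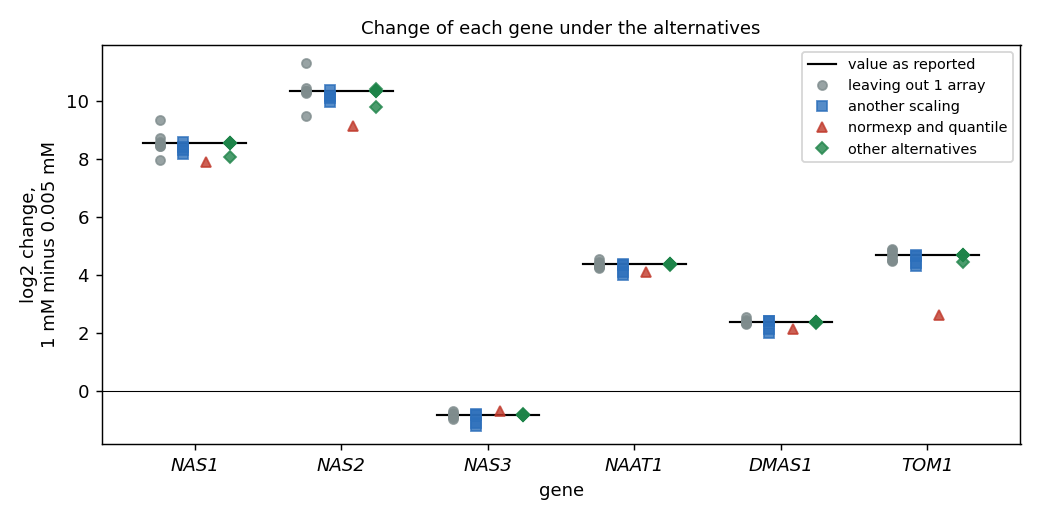
Log2 change of each gene, 1 mM minus 0.005 mM, as reported (line) and under each alternative (points). All points keep the sign of the line. TOM1 moves most, to 2.61 with normexp and quantile normalization, and NAS1 and NAS2 spread with the array that is left out.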

How the data were processed

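Spot intensity was measured on 8 single-colour (Cy3) arrays, 1 per RNA sample. The processed intensity in the deposited array files had its background subtracted by the scanner software (per the file headers, Agilent Feature Extraction 10.10.1.1). The authors' deposited table gives p-values, q-values and log2 ratios for listed spots; how it was made is not given in the sources used here, and its 8 columns of scaled signals were not used because their names match no sample title.

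Log2 processed signals were reduced by the array's 75th percentile over non-control spots. Outlier-flagged spots were dropped, probes well above background on at least 4 of 8 arrays were kept, and the brightest stood for its locus. The test was two-sided, from lmFit and eBayes of limma 3.58.1 (R 4.3.3), with Benjamini-Hochberg adjustment over 24973 units. Of these, 66 missed at least 1 array, but none of the 6 genes did. The functions were tested on simulated data. The number of arrays limits the precision.

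Members and lists were chosen with earlier results of these data known. Named are all members, up to 4 called genes with the largest change in each list, and the 3 loci closest to NAS1 and NAS2 in pattern. FER1, FER2, SAMS1, IDI2, YSL9, ENA2, IRT1 and PEZ1, and the marker genes, were named after their values had been seen. Pairs of locus and symbol came from general knowledge. The RefSeq gene table (assembly ASM3414082v1) held 35 of 61 symbols, and 30 passed, lying on the chromosome of the locus within 10% of its gene order, a tolerance chosen after seeing the distances. Of the names used here it lacks DMAS1, MIR, IMA1, BHLH58, HRZ1, FER1, FER2, SAMS1, SAMS3, FDH1, DEP1, ENA2, PEZ1 and RCC3, and it places TOM1 and IRO2 on another chromosome and VIT2 at another position. Sequences of the probes and genes were not used here. Alternatives covered scaling, background correction, filter, unit, replicate block, weights, variance model and leaving out each array. The arrays hold no mean-signal column, so normexp was run on the median signal with an offset of 50.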

Additional observations from a re-analysis of the deposited data

Results flagged for a closer look

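Over 40 groups of 4 array values (members, named genes and the array percentile), 1 held an array far from the other 3, where chance gives about 1 in 20. The 75th percentile relative to the spike-in probes stood at -0.57 in replicate 4 at 0.005 mM, against -0.68 to -0.66 in the other arrays of that group (gap over range 0.861, above Dixon's critical value for 4 samples). The ratios of NAS1 and NAS2 at 0.005 mM did not exceed that value. The rule looks for 1 array far from the other 3, whereas for these genes replicate 2 stood far above and replicate 4 far below. It therefore cannot judge their wide spread.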

How the results depend on the processing

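The log2 changes of all 6 genes kept their direction and their call under every alternative that kept them. They ranged from 7.87 to 9.33 for NAS1, 9.14 to 11.30 for NAS2, -1.20 to -0.68 for NAS3, 3.99 to 4.56 for NAAT1, 2.02 to 2.55 for DMAS1 and 2.61 to 4.91 for TOM1. NAS2 and TOM1 were lost when a probe had to be above background on all 8 arrays, which left 3 of the 6 genes and 1 iron regulator higher. With every probe as a unit, 8 probes of the 6 genes were higher and 2 lower. Of all 35953 probes in that setting 12138 (33.8%) were higher and 43.1% lower. There 16 probes of iron transport were lower, 5 of iron regulators higher and 21 of the methionine cycle higher. A gene can have several probes, and the number of probes tested in each list is not given here. These counts are therefore not compared with the shares. Units higher numbered 4883 (14733 lower) on unscaled arrays and 4022 (16082 lower) after spike-in scaling, against 8049 (10946 lower). On unscaled arrays 7 iron regulators, 3 storage genes and 2 methionine cycle genes were lower. With spike-in scaling these were 7, 4 and 3, and with quantile normalization, alone or after normexp, 2 storage genes and 2 methionine cycle genes were lower. The cause of none of these shifts was tested. When single arrays were omitted there were 0 to 1 higher storage genes, and -0.43 to -0.35 for the percentile against spike-ins, where p was 0.0571 (exact permutation) without replicate 4 at 0.005 mM. With normexp and quantile normalization the log2 changes of IRO2, MIR, IRT2 and SAMS3 were 0.83, 1.36, 2.10 and 0.42. Same-numbered samples deviated from their group means with correlations of 0.32, -0.01, 0.10 and 0.07. Replicates 1 and 3 correlated best with their own number and 2 and 4 did not, so no pairing was assumed. A fit with the number as a replicate block called 8110 units higher and 11015 lower, with no call of the 6 genes changed.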

Other observations

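On the main scale, all measured loci with numbers near that of TOM1 on chromosome 11 had smaller changes than TOM1. The change of TOM1 rests on signals near background at 0.005 mM. It was 2.61 with normexp and quantile normalization, for which the changes of these loci are not given here. Of 20 such loci on the array 16 were measured, and 7 rose, 3 fell and 6 did not pass (limma), with a median log2 change of 0.12, next to 32.2% higher and 43.8% lower over all units. The nearest measured locus on either side was Os11g0134700, with 0.13 ± 0.07 (not passed), and Os11g0135000, which rose by 0.39 ± 0.08. The largest change among them was that of Os11g0136300, at 3.10 ± 0.24, and the lowest that of Os11g0134400, at -1.44 ± 0.15. These loci have no name in the sources used here.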
